A study of Arabidopsis halleri and Arabidopsis lyrata subsp. petraea with 24 samples.

Results

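Arabidopsis ATH1 arrays carry 1 run of 150 consecutively numbered probe sets that holds the probe sets for genes of the chloroplast and mitochondrial genomes. These 150 probe sets, out of 22810 on the array, were taken by identifier number and not by their values. The block itself was chosen with earlier results of these data known. The annotation gave 69 of them 1 chloroplast gene each and gave 8 several chloroplast genes. It gave 12 of them 1 mitochondrial gene each and gave 1, 244944_s_at, several. It gave 5 a locus name of the AT2G07 series, the stretch of A. thaliana chromosome 2 that carries an insert of mitochondrial DNA. Another 45 were unnamed here. The remaining 10 went against the label, since they named nuclear genes: 8 had an AT2G26 locus name and 2 were YAB5, a YABBY transcription factor gene of leaves, and AR781.

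Total RNA was measured on 24 arrays in 8 groups of 3. The plants were Arabidopsis halleri, a species that tolerates and accumulates zinc, and its relative Arabidopsis lyrata subsp. petraea, written A. petraea here. Each group was either a whole root system or rosette leaves, from plants on full mineral medium alone (control) or from plants given 25 µM zinc (high zinc). How much zinc the control medium held is not stated in the labels. The labels give no cultivar, ecotype or transgene, and they do not say whether arrays of the same group were made from different plants. In whole organs, fewer cells with many plastids and fewer transcripts in each cell cannot be told apart.

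Plastids and mitochondria keep small genomes that encode part of their own machinery, while most of their proteins are made from nuclear genes and imported. In the chloroplast, the bacterial-type RNA polymerase, whose core subunits are encoded by the rpo genes, transcribes mainly the photosynthesis genes. A phage-type polymerase encoded in the nucleus transcribes several housekeeping genes, such as rpoB, accD and clpP. Root plastids carry the same genome as leaf chloroplasts but do not photosynthesise. Organelle transcripts mostly lack long poly(A) tails, and the labels do not name the primer used to label the RNA. The probes were designed on A. thaliana, so a difference in sequence can lower a signal without a change in transcript level, which bears on comparisons between the species.

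The printed organ labels did not follow the organ markers. Leaf genes (RCA, PSAE-1, PRK and SBPASE, all of photosynthesis) and root genes (PYK10, EXPA7 and EXPA18) gave 9 of 24 arrays the printed organ, and 15 arrays, 8 labelled roots and 7 labelled leaves, had the markers of the other organ. Every comparison was therefore made in 2 ways. The first used the groups as printed in the titles. The second sorted the serial numbers in the titles as text (1, 10, 11 and so on), and gave the array in each place of that order the group and replicate number printed for the serial equal to that place. The text order is an inference, chosen with results of these data known. No label states it, and neither the organ markers nor the chloroplast transcripts are independent support for it. Under it 23 arrays had the markers of their organ. The margin was narrow on A. halleri high zinc root array 3 (leaf minus root markers -0.105) and A. petraea control root array 3 (-0.387). The exception was A. petraea high zinc root array 2 (printed as A. petraea high zinc leaf array 3). It had leaf markers (mean 10.62) above root markers (mean 7.195) and is called the array with leaf markers below. Its root markers were not low, since the arrays with root markers above leaf markers had root marker means of 6.24 to 9.49. A. petraea control leaf array 2, at 7.05, also lay in that range. Whether either array held RNA of both organs was not tested. The organ markers do not test the species or zinc level that the text order gives an array. Over all probe sets tested, 1 of 24 arrays correlated most with an array of its own group under the text order, and 1 under the printed labels.

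The median of the chloroplast members followed the organ markers on every array and the median of the mitochondrial members did not. All values are on the log2(signal + 16) scale unless given as a signal. An array's class median is the median over all members with 1 gene of that organelle (69 chloroplast, 12 mitochondrial), whether tested below or not. Chloroplast medians lay between 9.56 and 11.64 on the 13 arrays with leaf markers above root markers and between 6.86 and 7.69 on the other 11. Mitochondrial medians lay between 6.05 and 7.85 on the 13 and between 6.37 and 7.13 on the 11, so these ranges overlapped. The mitochondrial members had mean signals of 10.3 to 1103.56 (median 99.3), and low signals limit what their median can show. The chloroplast members with 1 gene took 3.90% to 7.2% of all signal on the 13 arrays and 0.608% to 0.917% on the 11.

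**Figure D1:**
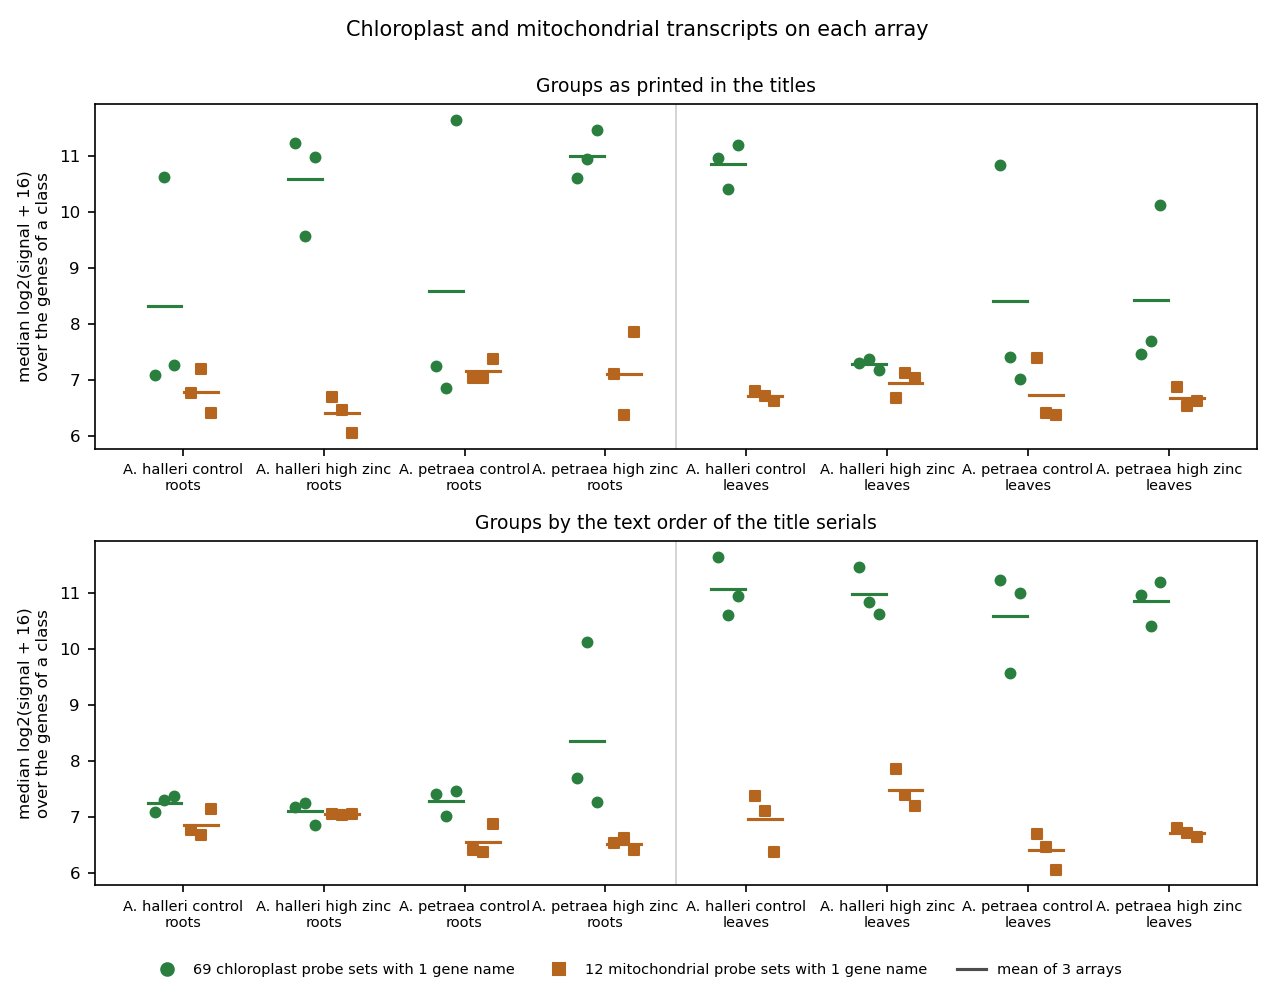
Median log2(signal + 16) of the chloroplast and mitochondrial members on each of the 24 arrays, grouped by printed label and by text order. Under the printed labels several groups hold arrays near 7 and arrays near 11, while under the text order the chloroplast medians of root arrays sit between 6.86 and 7.69, except A. petraea high zinc root array 2 at 10.13.

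Of the 150 members, 130 passed a filter on low values and were tested, among them all 69 chloroplast members and 10 of the 12 mitochondrial members. The maturase gene matR (mean signal 10.3) and the complex I subunit gene nad7 (21.8) did not pass. A member was called at a Benjamini-Hochberg adjusted p under 0.05 in limma, over all 17107 probe sets tested. Apart from the organ marker rule, signals of different probe sets are not compared, because each probe set binds with its own strength.

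Under the printed labels, 1 of 11 comparisons called members, the zinc response in A. halleri leaves, and there the chloroplast transcripts were lower in the arrays labelled high zinc. It called 53 members, 49 of them lower and 4 higher, where 17.2% of all probe sets tested were called, 6.24% lower and 11% higher. Of the 69 chloroplast members 42 were lower (median difference -3.03, against 0.30 over all probe sets tested) and 0 were higher. None of the 10 mitochondrial members was called (median -0.00325), and 2 of them had an unadjusted p under 0.05. All 3 printed control leaf arrays had leaf markers and none of the 3 printed high zinc leaf arrays did, so zinc and organ cannot be told apart in this comparison.

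Among members with 1 organelle gene, the largest falls in the printed A. halleri leaf comparison were in atpH, psbT, psbA and psbF. The ATP synthase subunit gene atpH read 12.01, 11.00 and 11.36 in the control arrays and 6.61, 4.52 and 4.87 in the high zinc arrays, a difference of -6.12 ± 1.65 (SE, limma adjusted p = 0.0228). The photosystem II reaction centre gene psbA read 13.32, 11.58 and 12.05 against 6.46, 7.09 and 6.70 (-5.56 ± 1.77, limma adjusted p = 0.0384). The groups did not overlap in either gene. The atpH values of 4.52 and 4.87 lay near the floor of the scale, so the size of its fall depends on the pseudocount. The small photosystem II subunit genes psbT (-5.68 ± 1.62) and psbF (-5.16 ± 1.45) fell with limma adjusted p = 0.0272 and 0.0261. By complex, 13 of 15 photosystem II genes, 6 of 6 ATP synthase genes and 5 of 6 cytochrome b6f genes were lower. So were 6 of 10 genes of the NDH complex, which carries electrons around photosystem I, 2 of 7 photosystem I genes, 6 of 15 ribosomal protein genes and 2 of 4 RNA polymerase genes. The Rubisco large subunit gene rbcL, at -2.75, was not called (limma adjusted p = 0.0643). Leaving out any 1 of the 6 arrays left 2 to 11 members called and took the limma adjusted p of all 4 genes named first in this paragraph above the threshold (0.0511 to 0.117).

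In the other printed comparisons no member was called by limma. Over all probe sets tested, the zinc response in A. halleri roots called 0.0585%, the difference between the species in leaf zinc response 0.351%, and the other 8 called 0. Among the 130 members, unadjusted p was under 0.05 for 36 (27.7%, against 10.0% of all probe sets tested) in the zinc response of A. halleri roots and for 34 (26.2% against 6.98%) in that of A. petraea roots. It was so for 46 (35.4% against 16.6%) in the difference between the species in leaf zinc response. In the remaining 7 comparisons it was so for 0 to 16 members (0% to 12.3%), against 1.44% to 13.3% of all probe sets tested. All printed high zinc root arrays had leaf markers (leaf minus root markers 4.57, 3.24 and 5.64 in A. halleri, 5.09, 5.83 and 3.88 in A. petraea). The printed control root arrays were mixed (-3.30, 4.72 and -1.37, and -2.33, -0.105 and 4.17). Zinc and organ therefore cannot be told apart in these root comparisons. The difference in leaf zinc response includes the A. halleri leaf comparison above and shares its limit. The printed organ difference (roots minus leaves) had chloroplast medians of 0.29 (A. halleri) and 1.17 (A. petraea).

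Under the text order, roots had far less signal than leaves for nearly every chloroplast gene in both species. In A. halleri 92 members were called, 83 of them lower and 9 higher in roots, where 38% of all probe sets tested were called, 12.4% lower and 25.6% higher. Of the 69 chloroplast members 67 were lower in roots and 0 were higher (median difference -3.11, range -6.01 to 0.09). In A. petraea 81 members were called, 80 of them lower and 1 higher in roots, where 21.5% of all probe sets tested were called, 9.36% lower and 12.1% higher. Again 67 of 69 chloroplast members were lower and 0 higher (median -2.50, range -4.96 to -0.18). The median over all probe sets tested was 0.28 in the first species and 0.19 in the second, so the falls were measured against a small shift the other way. Without A. petraea high zinc root array 2, the A. petraea count was 68 of 69 and the median -2.81.

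Photosystem II genes had the lowest median of the chloroplast lists, -4.32 in A. halleri and -3.52 in A. petraea, with 15 of 15 lower in both species. Each probe set has its own strength and some sizes move with the pseudocount (psbT in A. halleri -5.97 with 1 and -4.57 with 64). The medians therefore set no order among the lists. The gene psbA, for the D1 protein of the reaction centre, read 6.38, 6.46 and 7.09 in A. halleri control roots and 6.70, 6.27 and 6.29 in high zinc roots. In A. halleri leaves it read 12.66, 11.84 and 11.49 in control arrays and 12.18, 11.77 and 11.40 in high zinc arrays. Roots and leaves of A. halleri did not overlap, and the difference was -5.36 ± 0.71 (SE, limma adjusted p = 9.38e-06). In A. petraea roots psbA read 4.75, 6.32 and 7.71 in control arrays and 6.77, 12.18 and 6.11 in high zinc arrays, and its 6 leaf arrays lay between 11.58 and 13.32. The value of 12.18 belonged to the root array with leaf markers and lay among the leaf values, while the other 5 root arrays lay below all leaf arrays (-4.96 ± 0.71, limma adjusted p = 6.50e-05).

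Another large fall in A. halleri was in psbH, which encodes a small phosphoprotein of photosystem II. It read 4.42, 5.92 and 4.67 in control roots and 4.75, 5.75 and 4.57 in high zinc roots. Leaves read 12.26, 10.08 and 11.10 in control arrays and 11.01, 10.93 and 10.75 in high zinc arrays. Roots and leaves did not overlap, and the difference was -6.01 ± 0.54 (limma adjusted p = 1.55e-07). The root values lay near 4, the lowest value of this scale, so the size depends on the pseudocount: it was -7.08 with a pseudocount of 1 and -4.70 with 64. No detection calls were used, and 6 of the 69 chloroplast members (atpI, ndhF, ndhJ, psbH, psbN and rps16) had an A. halleri root mean under the level of the filter on low values, so the sizes of such falls have no order. In A. petraea psbH differed by -3.46. The small subunit gene psbT fell by 5.48 in A. halleri and by 4.36 in A. petraea. The gene psbZ fell by 4.88 and 4.14, and psbD, for the D2 protein, fell by 2.97 and 2.22.

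The other complexes of the thylakoid membrane moved the same way. Photosystem I, with its assembly genes ycf3 and ycf4, had 7 of 7 genes lower in both species (medians -3.52 in A. halleri and -2.77 in A. petraea). Its reaction centre genes fell in both, psaA by 3.78 and 2.88 and psaB by 3.62 and 3.57. The small subunit gene psaI fell by 1.52 and 1.76 and ycf3 by 2.58 and 1.74, the smallest falls of this list. All 6 cytochrome b6f genes were lower in both (medians -3.09 and -2.48), with petB, for cytochrome b6, at -2.91 and -2.38. All 10 NDH complex genes were lower in both (medians -3.59 and -2.71).

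All 6 ATP synthase genes were lower in roots of both species (medians -3.39 and -2.72), and atpH, for the membrane ring subunit, fell in both. It read 5.24, 6.61 and 4.52 in A. halleri control roots and 12.21, 10.76 and 11.03 in control leaves. Its differences were -5.93 ± 0.60 in A. halleri (limma adjusted p = 5.45e-07) and -4.09 ± 0.60 in A. petraea (limma adjusted p = 7.85e-05). The A. halleri size depends on the pseudocount, at -6.97 with 1 and -4.75 with 64, since a root value of 4.52 lay near the floor of the scale. The catalytic subunit gene atpB fell by 2.62 and 2.21. The Rubisco gene rbcL read 7.08, 7.08 and 7.06 in A. halleri control roots and 11.30, 9.85 and 9.84 in control leaves, and fell by 3.07 and 1.95.

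Genes of the plastid's own expression machinery were also lower in roots. The 4 RNA polymerase genes were lower in both species (medians -2.45 and -1.89), with rpoB at -2.80 and -2.01. Of the 15 ribosomal protein genes 14 were lower in A. halleri and 13 in A. petraea (medians -2.74 and -1.83), with rps2 at -3.47 and -2.06. The 2 exceptions were rps14, which was called in neither species, and rpl36, which was called in A. halleri alone and differed by -1.43 in A. petraea. The intron maturase gene matK fell by 1.86 and 1.38 (its call in A. petraea was lost without high zinc root array 3) and accD, for a subunit of the acetyl-CoA carboxylase of fatty acid synthesis, fell by 2.32 and 1.28.

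The genes with the smallest organ differences in A. halleri were rps14 and clpP. The ribosomal protein gene rps14 read 6.39, 7.11 and 7.58 in A. halleri control roots and 6.70, 6.65 and 7.01 in control leaves. Its roots and leaves overlapped in both species, and the differences were 0.09 ± 0.20 and -0.18 ± 0.20. The gene clpP, for the proteolytic subunit of the plastid Clp protease, read 11.90, 11.15 and 11.72 in A. halleri control roots and 12.89, 11.90 and 11.90 in control leaves. It differed by -0.70 ± 0.36 in A. halleri, short of a call (limma adjusted p = 0.13), and fell by 1.35 ± 0.36 in A. petraea (limma adjusted p = 0.00993). The lowest A. petraea values were those of control root array 3 and high zinc root array 3, at 10.17 and 10.27, against 10.85 to 11.83 in the other 4 root arrays.

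**Figure D2:**
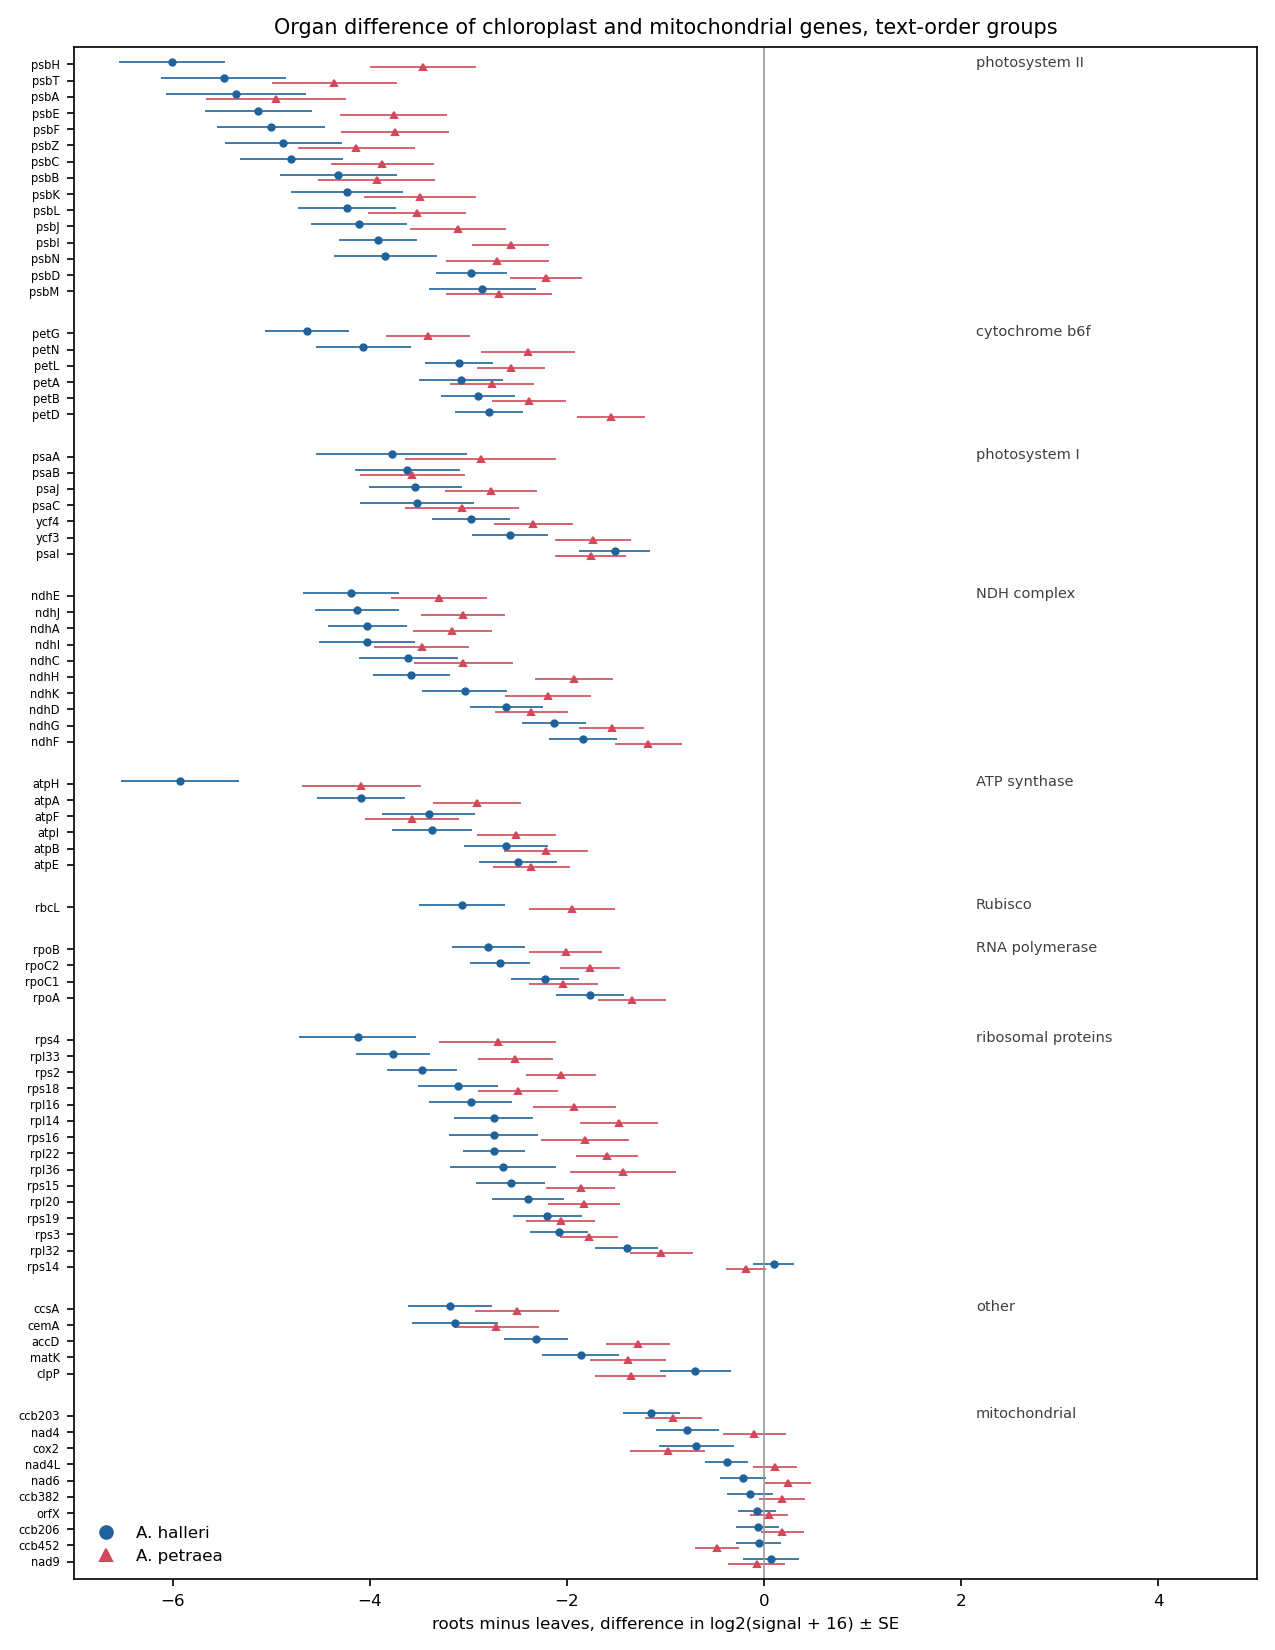
Roots minus leaves difference in log2(signal + 16) under the text order for each tested member with 1 organelle gene, by functional list and species. Chloroplast points lie below 0 apart from rps14 near 0 (0.09 and -0.18), with photosystem II medians of -4.32 and -3.52, and mitochondrial points lie between -1.15 and 0.24.

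Few mitochondrial genes passed the test between roots and leaves. Of the 10 tested, 1 was called in each species, and the medians were -0.18 in A. halleri and -0.01 in A. petraea. Over all probe sets tested, 38% were called in A. halleri (12.4% lower in roots) and 21.5% in A. petraea (9.36% lower). With 10 genes tested, the counts say little about the mitochondrial members as a class. The called gene was ccb203, for a protein that inserts haem into cytochromes c. It was lower in roots by 1.15 ± 0.29 in A. halleri (limma adjusted p = 0.0043) and by 0.92 ± 0.29 in A. petraea (limma adjusted p = 0.0274). In A. halleri it read 4.87, 5.02 and 4.97 in control roots, 6.74, 6.75 and 6.50 in high zinc roots, 6.78, 6.78 and 5.35 in control leaves and 7.75, 7.86 and 7.22 in high zinc leaves. The A. halleri control roots were lower than all other A. halleri arrays, and the high zinc roots lay above control leaf array 3. In A. petraea the call was lost when any of 4 arrays was left out (control root 2, high zinc root 3, control leaf 1 or high zinc leaf 1), with a limma adjusted p of 0.0512 to 0.0952.

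The complex I subunit gene nad4 read 9.69, 9.47 and 9.50 in A. halleri control roots and 10.93, 10.72 and 9.47 in control leaves. Its roots and leaves overlapped, and its difference of -0.78 ± 0.32 missed the threshold (limma adjusted p = 0.06). The complex IV subunit gene cox2 read 7.87, 7.13 and 9.00 in A. halleri control roots and 9.47, 8.87 and 7.56 in control leaves. It differed by -0.69 ± 0.38 in A. halleri and -0.98 ± 0.38 in A. petraea (limma adjusted p = 0.07). Without A. petraea high zinc root array 2, cox2 was called in A. petraea (-1.13, limma adjusted p = 0.0449). The complex I genes nad4L and nad6 and the cytochrome c maturation gene ccb382 differed by between -0.38 and 0.24 in the 2 species and were not called. The probe set 244944_s_at, which has several mitochondrial genes, was lower in A. halleri roots (-1.15 ± 0.43, limma adjusted p = 0.04) and not called in A. petraea (-0.44).

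Among the other members, the 8 probe sets with several chloroplast genes had 7 lower in roots in both species. The lowest was 244988_s_at, at -3.56 in A. halleri and -3.0 in A. petraea, and the exception was 244989_s_at. Of the 30 unnamed members tested, 8 were higher and 5 lower in A. halleri roots, where 25.6% and 12.4% of all probe sets tested were. In A. petraea 1 was higher and 3 were lower, where 12.1% and 9.36% of all probe sets tested were. These counts say little about the unnamed members as a class. Among the unnamed members, 244981_at had the largest difference, at -2.84 and -1.81. The nuclear member AT2G26500, for a small subunit of the cytochrome b6f complex, read 6.83, 6.65 and 6.97 in A. halleri control roots and 12.61, 11.83 and 11.98 in control leaves, and fell by 5.43 and 4.65. YAB5 fell by 1.64 and 1.31, while AR781 was not called in either species.

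Nuclear genes for organelle proteins were described in 2 lists. The annotation named 7 of 40 listed nuclear genes for subunits of plastid complexes (ATPC1, NdhL, NdhN, PSAE-1, PSAN, PSBW and PSBY). Of these, 7 of 7 were lower in roots in both species (medians -5.72 and -4.46), where 12.4% and 9.36% of all probe sets tested were. PSAE-1 is also 1 of the leaf markers. The annotation also named 7 of 36 listed nuclear genes of mitochondrial electron transport (CYTC-1, CYTC-2, FRO1, NDB1, SDH1-1, SDH2-1 and SDH2-2). They are for cytochrome c, complex I, an alternative NADH dehydrogenase and complex II. Limma called 0 of 7 in either species, where 38% and 21.5% of all probe sets tested were called (unadjusted p was under 0.05 for 0 in A. halleri and 1 in A. petraea). None of the listed nuclear RNA polymerase and sigma factor genes had a named probe set.

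The difference between the species in the organ difference called no member under the text order, where 0.52% of all probe sets tested were called. Among the 130 members 16 had an unadjusted p under 0.05 (12.3%, against 10.5% of all probe sets tested). The chloroplast median was -0.75, a wider gap between roots and leaves in A. halleri, and -0.41 without A. petraea high zinc root array 2. The gene psbH had a difference between the species of -2.54 ± 0.76 (limma adjusted p = 0.162).

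Between the species, 3 of the 130 members tested were lower in A. halleri roots than in A. petraea roots under the text order. Of all probe sets tested 4.69% were called and 2.26% were called lower. The share of members called lower was close to the latter, so the count says little about the members as a class. The 3 were chloroplast genes: psbI, for a small photosystem II subunit, atpA, for the alpha subunit of ATP synthase, and rpl33, for a ribosomal protein. The gene psbI read 7.54, 7.76 and 7.37 in A. halleri control roots and 7.48, 7.91 and 7.29 in high zinc roots, and 9.12, 9.25 and 8.52 in A. petraea control roots and 9.74, 12.01 and 8.99 in high zinc roots. The species did not overlap, with or without the value of 12.01 from the root array with leaf markers. The difference was -2.05 ± 0.39 (SE, limma adjusted p = 0.00388), and -1.61 without that array (limma adjusted p = 0.00406).

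The gene atpA read 7.67, 8.44 and 7.99 in A. halleri control roots and 7.33, 7.80 and 6.15 in high zinc roots. It read 9.37, 9.13 and 8.73 in A. petraea control roots and 9.07, 12.19 and 9.08 in high zinc roots. The species again did not overlap (-2.03 ± 0.45, limma adjusted p = 0.0107, and -1.51 without A. petraea high zinc root array 2). The gene rpl33 lay between 7.76 and 8.75 in A. halleri roots and between 9.02 and 11.77 in A. petraea roots (-1.54 ± 0.38, limma adjusted p = 0.0227). Its call was lost when any of 3 arrays was left out (A. halleri control root 2 or high zinc root 3, or A. petraea control root 1), with a limma adjusted p of 0.052 to 0.0619. In leaves these 3 genes differed between the species by -0.70, -0.85 and -0.30 and were not called. Over all 69 chloroplast members the species median in roots was -0.58, and -0.21 without A. petraea high zinc root array 2. Leaving out A. petraea high zinc root array 3 raised the number of members called in roots from 3 to 8.

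In leaves 4 of the 130 members tested were higher in A. halleri than in A. petraea. Of all probe sets tested 6.06% were called and 2.9% were called higher. The share of members called higher was close to the latter, so this count too says little about the members as a class. The chloroplast gene petD, for subunit IV of cytochrome b6f, read 11.84, 10.26 and 9.85 in A. halleri control leaves and 8.91, 8.36 and 8.80 in high zinc leaves. In A. petraea it read 8.90, 7.34 and 8.32 in control leaves and 8.44, 8.31 and 9.17 in high zinc leaves. The species did not overlap among control arrays but did among high zinc arrays, and the mean difference was 1.25 ± 0.35 (limma adjusted p = 0.0333). This call was lost when any of 7 arrays was left out (array 1 or 3 of A. halleri high zinc leaves, array 1 of A. halleri control leaves, array 2 or 3 of A. petraea control leaves, or array 1 or 2 of A. petraea high zinc leaves), with a limma adjusted p of 0.0554 to 0.093.

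The mitochondrial gene ccb206, for a membrane protein of cytochrome c maturation, read 7.78, 7.28 and 6.76 in A. halleri control leaves and 8.31, 7.30 and 7.33 in high zinc leaves. In A. petraea it read 6.62, 6.79 and 6.01 in control leaves and 6.52, 6.67 and 6.55 in high zinc leaves. The species overlapped only where A. halleri control leaf array 3 met A. petraea control leaf array 2 (0.93 ± 0.22, limma adjusted p = 0.0126). The other 2 members called were AT2G07751 (1.23 ± 0.32) and the unnamed 244921_s_at (1.27 ± 0.26). The latter read 8.93, 8.48 and 7.27 in A. halleri control leaves and 8.79, 8.49 and 7.44 in high zinc leaves, so array 3 of each group was the lowest. The number of leaf calls ranged from 2 to 7 when 1 array was left out. It was 7 without A. halleri control leaf array 3, and 2 without A. halleri control leaf array 1, A. halleri high zinc leaf array 1, A. petraea control leaf array 3 or A. petraea high zinc leaf array 2. In roots cox2 had a species difference of 1.22 ± 0.38, short of a call (limma adjusted p = 0.067).

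**Figure D3:**
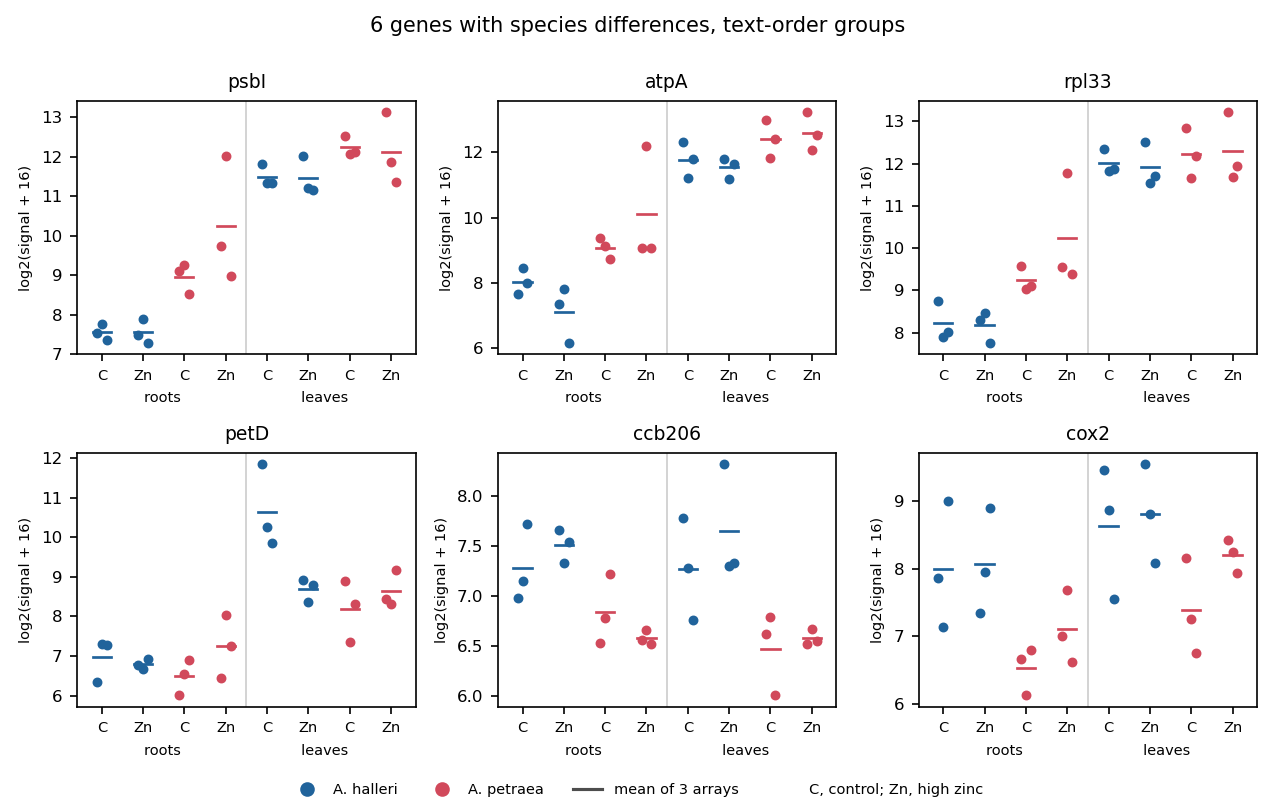
Log2(signal + 16) of psbI, atpA, rpl33, petD, ccb206 and cox2 on each array under the text order, by species, organ and zinc level. In roots psbI, atpA and rpl33 sit lower in A. halleri than in A. petraea, and in control leaves petD sits higher in A. halleri.

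No member was called for zinc under the text order. Limma called 0 of 130 members in each of the 4 zinc responses and in both differences between the species in zinc response, while over all probe sets tested it called 0.00585% in A. petraea leaves and 0 in the other 5. At an unadjusted p under 0.05 there were 3 members in A. halleri roots (2.31%, against 1.88% of all probe sets tested) and 2 in A. halleri leaves (1.54% against 0.585%). There were 7 in A. petraea roots (5.38% against 2.54%) and 5 in A. petraea leaves (3.85% against 2.72%). The differences between the species had 2 in roots (1.54% against 2.13%) and 3 in leaves (2.31% against 1.53%). The chloroplast medians were -0.15 in roots and -0.13 in leaves of A. halleri. They were 0.83 in A. petraea roots, or 0.08 without the array with leaf markers, and 0.31 in A. petraea leaves. The mitochondrial medians were 0.06, 0.17, 0.16 and 0.38 in the same order.

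Members with the smallest unadjusted p in these responses were ccb203 in A. halleri roots, petD in A. halleri leaves and AT2G07708 in A. petraea leaves. In ccb203 the high zinc and control arrays given above did not overlap in A. halleri roots (1.71 ± 0.41) or leaves (1.31 ± 0.41), and both had a limma adjusted p of 1. In petD the A. halleri control leaves lay above the high zinc leaves without overlap (-1.96 ± 0.49, limma adjusted p = 1). AT2G07708 differed by 0.98 ± 0.24 in A. petraea leaves (limma adjusted p = 0.999). For psbA, whose difference was -5.56 under the printed labels, the A. halleri leaf response under the text order was -0.21 ± 1.01.

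**Figure D4:**
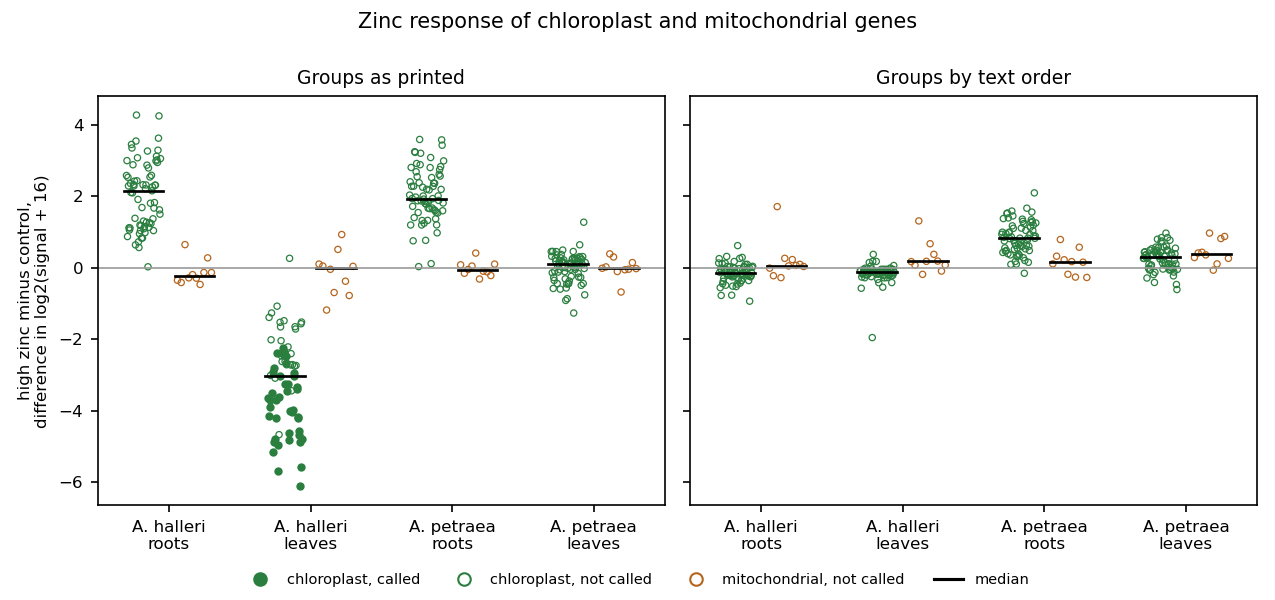
High zinc minus control difference in log2(signal + 16) for the tested chloroplast and mitochondrial members in each organ and species, under the printed labels and under the text order. The chloroplast median in A. halleri leaves is -3.03 under the printed labels and -0.13 under the text order, and the mitochondrial medians there are -0.00325 and 0.17.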

How the data were processed

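Per the submitters' processing notes the deposited values were MAS5 signals, an intensity on a linear scale, made 1 array at a time. The labels state neither the version nor the settings. The mean of an array, trimmed of 2% at each end, was 100.0045 to 100.0107 throughout, as after scaling to a common target, and median signals ranged from 43.0 to 71.5. Gene names came from a platform annotation table, sometimes out of date, with 1 gene for 13513 probe sets, several for 503 and none here for 8794. Probe sets with several genes are given by identifier.

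Signals were taken as log2(signal + 16), which understates the change of dim genes. The lowest 25% by mean log2 value were left out, which kept 17107 probe sets. limma 3.58.1 in R 4.3.3 fitted 8 group means to 24 arrays (16 residual degrees of freedom, eBayes with trend and robust settings, two-sided tests, Benjamini-Hochberg over all probe sets tested) for 11 comparisons under each of 2 groupings. Species and organ differences are means over both zinc levels. Groups came from the titles. Of 2 arrays labelled A. halleri control roots that both print replicate 1, that with the later serial is called replicate 3. All arrays carry the stage of 10 to 16 rosette leaves, except A. halleri control root array 1 (stage 1.1). P-values measure only the spread between arrays, which may be technical, and 3 arrays a group limit the precision.

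Members, gene lists, the text order and the markers were chosen with earlier results of these data known. Genes were named by rule: the 4 largest increases and decreases among called members with 1 gene, for each organelle, a set list of well-known genes and the highest mean signal of each organelle. Others named were chosen after their values were seen. The fit was tested on simulated data for 17107 genes: for the organ difference in A. halleri 34% of genes changed 2-fold and 92% of those changed 4-fold were recovered, and 9 of 170 calls were false. The simulated noise was independent between genes and 50 genes changed at each fold size. Deviations shared across probe sets and the many calls of the real data were not simulated, so these rates may not hold for them.

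The model had no replicate block. Under the text order, same-numbered control and high zinc arrays deviated together in 3 of 4 zinc comparisons (r = 0.20 to 0.81 across probe sets), and not in A. petraea roots (0.51, -0.05 and 0.31). Under the printed labels they did so only in A. petraea roots (0.22, 0.11 and 0.38). This is a check on the values, not a pairing the labels state. No fit modelled a pairing within a species and organ, so the zinc tests do not account for it. No genome or sequence was used.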

Additional observations from a re-analysis of the deposited data

How the results depend on the processing

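From the printed labels to the text order, the number of members called went from 53 to 0 for zinc in A. halleri leaves, and from 0 to 3 and 4 for the species difference in roots and leaves and to 92 and 81 for the organ difference in A. halleri and A. petraea. Leaving out 1 array gave 2 to 11 for zinc in A. halleri leaves and 0 to 3 for the organ difference in A. petraea under the printed labels. Under the text order it gave 2 to 8 and 2 to 7 for the species difference in roots and leaves, 87 to 92 and 75 to 87 for the organ difference in A. halleri and A. petraea, and 0 to 1 for the difference between the species in the organ difference. Quantile normalization gave 5 for the species difference in roots under the text order. The replicate block gave 45 for printed zinc in A. halleri leaves and, under the text order, 3, 5, 94 and 84 for the species and organ differences, and moved no count by over 1.5 times. It gave each replicate number the same effect in all 8 groups, so it did not model a pairing within a species and organ. With the block and without A. petraea high zinc root array 2, an alternative chosen after seeing the data, the counts were 8 and 8 for the species difference in roots and leaves and 1 for the difference between the species in the organ difference. The cause of these moves was not tested. The counts of members called were within 1.5 times under the other alternatives tried (pseudocounts of 1 and 64, no filter on low signals).

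Of 1083 alternatives to 64 values of single members, 997 kept direction and side of the threshold, 67 fell short of a call, 6 gained one and 13 reversed, all 13 in members that were not called. For printed zinc in A. halleri leaves, nad4L reversed to -0.22 and nad6 to -0.27 with quantile normalization, and cox2 to 0.19 and clpP to 0.14 under the text order. There, leaving out 1 array gave nad4L -0.14 to 0.25, nad6 -0.14 to 0.25 and ccb382 -0.13 to 0.24. Under the text order, quantile normalization reversed ccb382 to 0.23 for the organ difference in A. halleri and nad4L to -0.059 for that in A. petraea, and leaving out 1 array gave ccb382 -0.28 to 0.016 and nad4L -0.012 to 0.18. Signals of MAS5 near background limit what can be seen for matR and nad7, and low signals limit it for other dim mitochondrial members.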

Other observations

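The text-order organ difference is given here for genes that are read together in the plastid, in units chosen after their values were seen. Each value comes from its own probe set, and a root value near the floor of the scale bounds the difference, so the values within a unit show no order of the genes. In the psbB unit of 5 genes the A. halleri difference ran from -2.79 in petD (root mean 6.88) to -6.01 in psbH (root mean 5.01), and in A. petraea from -1.55 in petD to -4.36 in psbT. In the psaA unit of 3 genes it ran from 0.09 in rps14 to -3.78 in psaA, and in A. petraea from -0.18 in rps14 to -3.57 in psaB. In the atpI unit of 4 genes it ran from -3.37 in atpI to -5.93 in atpH, and in A. petraea from -2.52 to -4.09 in the same genes. In the atpB unit atpE was at -2.50 and atpB at -2.62 in A. halleri. The rpoB unit of 3 genes ran from -2.22 in rpoC1 to -2.80 in rpoB.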
